A study of Mus musculus with 22 samples.

Results

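Transforming growth factor beta (TGF-beta) genes were followed in the hypothalamus of obese, diabetic mice after an injection of fibroblast growth factor 1 (FGF1) into the brain. The 6 genes were taken by name, with earlier results of these data known. Included are the ligands Tgfb1 and Tgfb2, the receptors Tgfbr1 and Tgfbr2, and the intracellular mediators Smad3 and Smad7. They are 6 of the 21260 genes counted in nuclei or in whole cells, and all 6 are in both tables. TGF-beta is secreted in a latent form that binding proteins hold in the extracellular matrix until integrins or proteases free it. The active ligand brings the type II receptor (Tgfbr2) and the type I receptor (Tgfbr1) together, and the type I receptor then phosphorylates Smad2 and Smad3, which enter the nucleus with Smad4. Smad7 is induced by the pathway and inhibits the type I receptor. In the brain the pathway is known for its part in microglial identity, in vessel integrity and in astrocytic responses to injury.

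All 22 animals were male leptin-deficient ob/ob mice of 11 weeks, and each sequencing library came from 1 mouse. Each was given 1 intracerebroventricular (icv) injection, of 3 µg FGF1 or of the phosphate-buffered saline vehicle, and the vehicle animals were pair-fed (PF), so that food intake was matched. Nuclei from frozen hypothalamic punches were profiled at 24 h (Day 1; 3 FGF1 against 3 vehicle) and on Day 5 (2 against 2) by single-nucleus RNA-seq. Whole cells, from enzymatic dissociation of the hypothalamus, were profiled on Day 5 in other animals (6 against 6), and the authors had removed neurons from them. The cohorts were housed at different sites on different chow, so nuclei and cells are not compared directly, and no lean mice or mice without surgery are part of the design. A vehicle group without pair-feeding is also not analysed here.

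The libraries held between 2652897 and 16345981 unique molecular identifiers (UMIs). On Day 1, FGF1 nuclei were the shallower ones, with library medians of 2029 to 2816 UMIs per nucleus against 3178.5 to 3776 after vehicle. Some libraries stood apart in the share of nuclei above 5% mitochondrial or 5% ribosomal UMIs. In FGF1 replicate 1 of Day 1, only 21 of the 119 nuclei labelled tanycyte and 106 of the 388 labelled astrocyte lay within both limits. Of astrocyte nuclei, the same held for 61 of 148 in vehicle replicate 2 of Day 1 and 72 of 208 in vehicle replicate 28 of Day 5. Tests in tanycyte and astrocyte nuclei are also given without the nuclei above these limits, while levels of vehicle mice, within-batch values and differences of effects include them. A total of 638 of the 24965 nuclei and 3616 of the 54890 cells had a barcode sequence found in more than 1 library. Nuclear labels were checked against marker lists. Summed neuron markers reached 3360 CPM (UMIs scaled to a common library total) in nuclei labelled oligodendrocyte (Olig), 3452 in microglia (Micro) and 2870 in COP. In the nuclei labelled unmap they reached 3834. COP stands for committed oligodendrocyte precursors. Nuclei of that label also held markers of earlier oligodendrocyte precursors, at 1745 CPM against 1360 for the COP markers. The unmap nuclei are neurons that the authors could not place with confidence among published hypothalamic types. Astrocyte (Astro, 1185), tanycyte (Tany, 652) and ependymal (Epend, 457) nuclei lay far lower in neuron markers and are described in most depth. Tany nuclei also held astrocyte markers, at 1576 CPM against 1474 for the tanycyte list. In Epend nuclei astrocyte markers reached 1502 CPM against 2397 for the ependymal list. The source of these counts was not tested.

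The first question was where each gene is expressed. Levels are CPM of a mouse and cell type, with the library scaled by edgeR's TMM factor, and are given as mean ± SD over mice. In whole cells of the 6 vehicle mice, the ligand gene Tgfb1 was highest in microglia (56.7 ± 44.7 CPM) and endothelial cells (20.2 ± 11.2). These classes did not differ beyond their spread. Macrophages also held Tgfb1, at 12.7 ± 16.3 CPM on 3 UMIs in 4 mice. In tanycytes, astrocytes, oligodendrocytes and COP, Tgfb1 lay at or near 0, and no UMI of it was counted in COP or in oligodendrocyte precursors (OPC). The second ligand gene, Tgfb2, had another distribution. It was highest in tanycytes (107.2 ± 34.1 CPM), the radial glia that line the third ventricle, and in endothelial cells (92.8 ± 8.5), which lay within the spread of tanycytes. Tgfb2 is among the 10 leading genes of the largest tanycyte cluster, so its level there is not independent of how the classes were drawn. The next class, ependymal cells (49.0 ± 8.5), lay below endothelial cells by more than their combined SDs, and was followed by vascular and leptomeningeal cells (VLMC, 41.7 ± 15.7, 4 mice) and astrocytes (33.8 ± 4.5).

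Both receptor genes were high in microglia, while in endothelial cells Tgfbr2 was high and Tgfbr1 was at 30.2 ± 4.6 CPM. Tgfbr1 reached 533.1 ± 106.6 CPM in microglia, and the next class, VLMC (67.9 ± 73.4, 4 mice), lay below it by more than the spread. A UMI of Tgfbr1 was found in 47.8% of the 1870 microglia, against 1.92% of 13580 astrocytes and 2.30% of 9962 oligodendrocytes, with medians of 1263.5 UMIs per cell in the microglial cluster and 1060 in the larger astrocyte cluster. Tgfbr2, the ligand-binding receptor, was near the same level in endothelial cells (116.7 ± 26.5 CPM), microglia (116.4 ± 41.3) and VLMC (112.5 ± 89.5). It was lower in macrophages (71.2 ± 26.5, 4 mice) and ependymal cells (47.7 ± 14.9), each within the spread of its neighbour in that order. In tanycytes, astrocytes, oligodendrocytes, OPC and COP it was at 3.22 CPM or less.

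The Smad genes were both counted in all 11 named classes but differed in where they were highest. Smad3 ran from 13.4 ± 26.0 CPM in pericytes and mural cells to 78.1 ± 72.2 in COP. There the 6 vehicle mice together gave only 24 UMIs. The more precise value was that of astrocytes, 35.4 ± 4.6 CPM on 339 UMIs. Smad7, the inhibitory Smad, was highest in oligodendrocytes (134.8 ± 37.0 CPM on 1184 UMIs) and microglia (84.0 ± 17.7), within the spread of each other, and was low in tanycytes (6.67 ± 2.54). In the 3 vehicle mice of Day 1 nuclei, Tgfb2 was again high in Epend (130.7 ± 58.1 CPM) and Tany (86.6 ± 18.6), and Tgfbr1 in Micro (186.0 ± 55.4), in each case within the spread of the next type. Nuclear types with enough nuclei to be fitted gave few UMIs of the other genes. The highest level there of Tgfb1 (VLMC, 19.3 ± 6.4 CPM) rested on 3 UMIs, and that of Smad7 (VLMC, 18.2 ± 21.9 CPM) likewise on 3. Endothelial nuclei were not fitted, and 52 of 96 of them over all mice held a UMI of Tgfbr2.

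**Figure D1:**
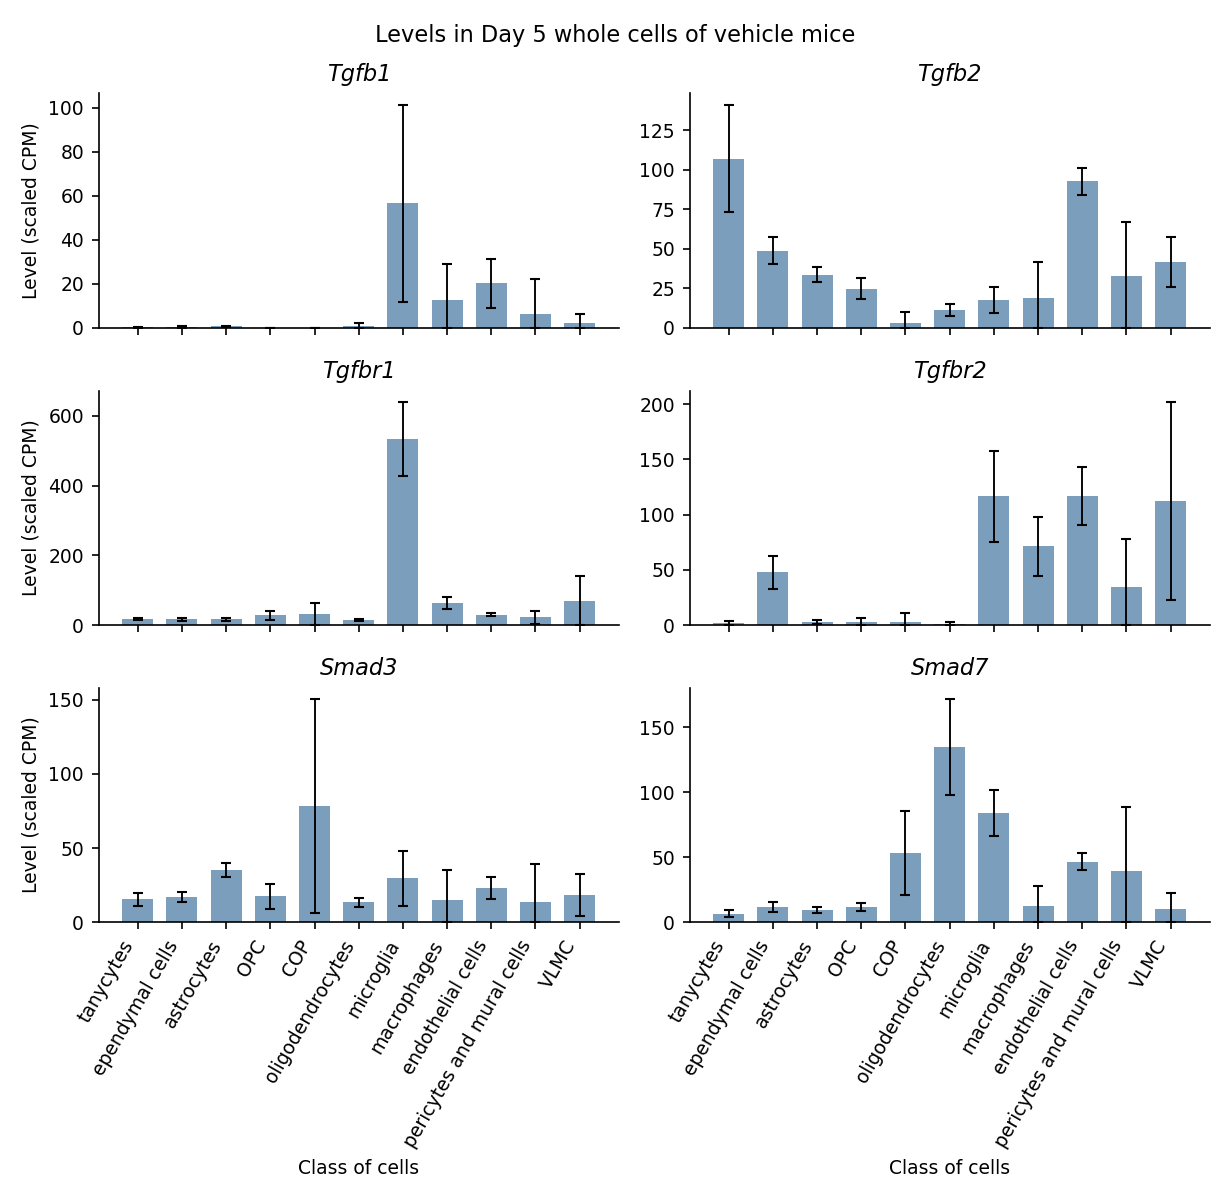
Level of each of the 6 genes (scaled CPM, y axis) in 11 named classes of whole cells of vehicle mice on Day 5 (x axis). Bars are the mean over mice and error bars 1 SD, not drawn below 0. Tgfbr1 stands out in microglia at 533.1 CPM, Tgfb2 in tanycytes and endothelial cells, and Smad7 in oligodendrocytes at 134.8 CPM.

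For a description of likeness, the mean log2(CPM + 1) over the 11 classes of vehicle cells was correlated between each member and 12840 genes with at least 10 CPM in at least 1 class. The 11 points share 6 mice, and classes of few cells weigh as much as large ones. Tgfbr1 was most like Abi3 (r = 0.973), Gm26740 and C5ar2, and Tgfb1 most like Pik3r6 (r = 0.978), Itpripl1 and Klhl6. Tgfb2 was most like Sqrdl (r = 0.949), Gsta4 and Lrp8, and Tgfbr2 most like Lgals9 (r = 0.940), Jun and Brd2. Smad3 was most like Epc1 (r = 0.942), Aup1 and Sppl2a. The pattern of Smad7 had the least close neighbours, led by Elmo1 (r = 0.873), Klf13 and Map7d1.

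The second question was which members responded within 24 h of icv FGF1. Smad3, the receptor-activated Smad that carries the TGF-beta signal to DNA, rose in tanycytes, ependymal cells and astrocytes. Its mean level was 145.7 CPM after FGF1 against 16.1 after vehicle in Tany, 306.9 against 47.2 in Epend and 108.7 against 17.4 in Astro. No other member was called at an FDR below 0.05 in any of the 18 nuclear types fitted, in which 12 tests of members could be made. These 3 calls of 12 stand beside 1.05% of all gene-by-type tests called on Day 1, and 0.653% called higher with FGF1. The members were chosen with earlier results of these data known, so the shares are a description and not a test. The low-count filter bears on that count: Smad3 passed it in these 3 types only through the FGF1 mice, since vehicle mice had 0 to 4 UMIs (Tany), 2 to 5 (Epend) and 3 to 10 (Astro), so that among low genes only those higher in 1 group were tested. Of the 12 tests, 4 entered through the FGF1 mice alone, these 3 and Tgfbr1 in Olig. Without the filter, 3 of 101 member tests were called, beside 0.537% of all tests.

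In tanycyte nuclei, Smad3 was at 165.5, 183.5 and 88.0 CPM in FGF1 replicates 1, 2 and 3, and at 20.6, 27.9 and 0 in vehicle replicates 1, 2 and 3. The lowest FGF1 mouse lay above the highest vehicle mouse. The log2 fold change was 2.96 (SE 0.57, FDR = 0.0067 by edgeR's quasi-likelihood test), on 95 UMIs in 187 FGF1 nuclei and 7 in 87 vehicle nuclei. In this type 9.14% of the genes tested were called, and 5.38% were called higher. Of the 6 fits that left out 1 mouse, the one without vehicle replicate 1 lost the call (log2 3.01, FDR = 0.071). Without FGF1 replicate 1 the log2 fold change was 2.87 (FDR = 0.012), and without the nuclei above 5% mitochondrial or ribosomal UMIs it was 2.76 (FDR = 0.0070).

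In ependymal nuclei, Smad3 was at 337.8, 280.8 and 302.2 CPM in FGF1 replicates 1, 2 and 3, and at 32.3, 79.7 and 29.6 in vehicle replicates 1, 2 and 3. The FGF1 mice lay close together and far above all vehicle mice, although each mouse gave only 13 to 23 nuclei. The log2 fold change was 2.70 (SE 0.46, FDR = 0.00059, edgeR), and the share of genes called in this type was large, at 19% (10.2% higher). The call was kept in all 6 fits that left out a mouse, with log2 fold changes from 2.48 to 3.26 (2.67 at FDR = 0.0030 without FGF1 replicate 1). Without nuclei above the 5% limits it was 2.71 (FDR = 0.00054).

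In astrocyte nuclei, Smad3 was at 86.9, 132.8 and 106.4 CPM in FGF1 replicates 1, 2 and 3. It was at 18.1, 17.1 and 17.1 CPM in vehicle replicates 1, 2 and 3. The groups did not overlap, and the vehicle mice were nearly equal. The log2 fold change was 2.61 (SE 0.45, FDR = 0.015, edgeR), in a type where 1.55% of the genes tested were called (1.39% higher). The log2 fold change varied little between fits, but the call did not hold in all of them: with the authors' batch as a block the log2 fold change was 2.60 at FDR = 0.092, and 4 of the 6 fits without 1 mouse (FGF1 replicate 2, or vehicle replicate 1, 2 or 3) did not pass, at 2.45 to 2.65 (FDR up to 0.11). Without FGF1 replicate 1 it was 2.73 (FDR = 0.0076), and without the nuclei above 5% mitochondrial or ribosomal UMIs it was 3.01 (FDR = 0.0015).

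Each of the authors' 3 batches held 1 FGF1 and 1 vehicle mouse. Smad3 was higher with FGF1 in 3 of 3 batches in Tany, Epend and Astro. As the groups did not overlap, any pairing of the mice gives that count. The within-batch difference of log2(CPM + 1) ran from 1.91 to 3.47 in Epend and from 2.28 to 2.81 in Astro. In Tany it was 1.62 and 3.10 in 2 batches, and in the other the vehicle mouse had 0 UMIs against 59, so that its difference is set by the added 1 and is not given. The effect of FGF1 on Smad3 did not pass the test for a difference between Tany and Epend (0.32 ± 0.72 SE on the log2 scale, edgeR FDR = 0.95) or between Tany and Astro (0.40 ± 0.75 SE, FDR = 0.95). That between Epend and Astro was 0.02 (FDR = 1). The Astro effect minus the Olig effect was 1.40 (SE 0.78) and did not pass either (edgeR FDR = 0.68). Smad3 was tested in 4 of the 18 types, these 3 and unmap, so the other types have no test. In unmap it was at 9.41 ± 3.45 and 5.54 ± 0.58 CPM, a log2 fold change of 0.72 (SE 0.39, edgeR FDR = 0.78), with overlapping groups. Fitted without the filter, Smad3 had an unadjusted edgeR p below 0.05 in 3 neuronal types, with overlapping groups in each. It was higher in n29.Nr5a1/Adcyap1 (37 UMIs with FGF1 against 12) and Glu5 (12 against 0), and lower in n13.Agrp/Gm8773 (0 against 4). None of these was called.

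Markers moved beside Smad3. In Epend the 5 ependymal markers summed to 793 to 1422 CPM in FGF1 mice and 2665 to 3442 in vehicle mice, and 4 of the 5 had a lower mean with FGF1. The 6 astrocyte markers in the same nuclei summed to 462 to 690 against 1227 to 1732 CPM, and the 7 oligodendrocyte markers to 124.5 to 323.1 against 404 to 717, with 5 and 6 of them lower with FGF1. In Tany the 8 tanycyte markers summed to 823 to 1219 CPM with FGF1 and 1140 to 1870 with vehicle, and the ependymal list to 62.8 to 106.6 against 308 to 516, and 6 of the 8 tanycyte and all 5 ependymal markers had a lower mean with FGF1. The oligodendrocyte list in Tany summed to 251.3 to 265.8 against 477.1 to 678.1 CPM, with 5 of 7 lower. In Astro the astrocyte list summed to 1436 to 2596 against 2760 to 3619 CPM and the 7 neuron markers to 703 to 1188 against 1259 to 1855. Of these, 4 of the 6 astrocyte and 6 of the 7 neuron markers had a lower mean with FGF1. The COP list in Astro was higher with FGF1, at 218.7 to 266.5 against 148.9 to 190.1 CPM, with 3 of the 6 markers at a higher mean. Of all the lists, the markers at 0 in every mouse were Gpr17, Tmem119, Pf4, Cd163 and Lyve1 in Tany, the same 5 with Bmp4, Ermn, Esam, Kcnj8, Higd1b and Col1a1 in Epend, and Pf4, a macrophage marker, in Astro. The part of these shifts, and of the shallower FGF1 nuclei, in the Smad3 result was not tested. A sum over nuclei cannot tell fewer expressing nuclei from less RNA in each.

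**Figure D2:**
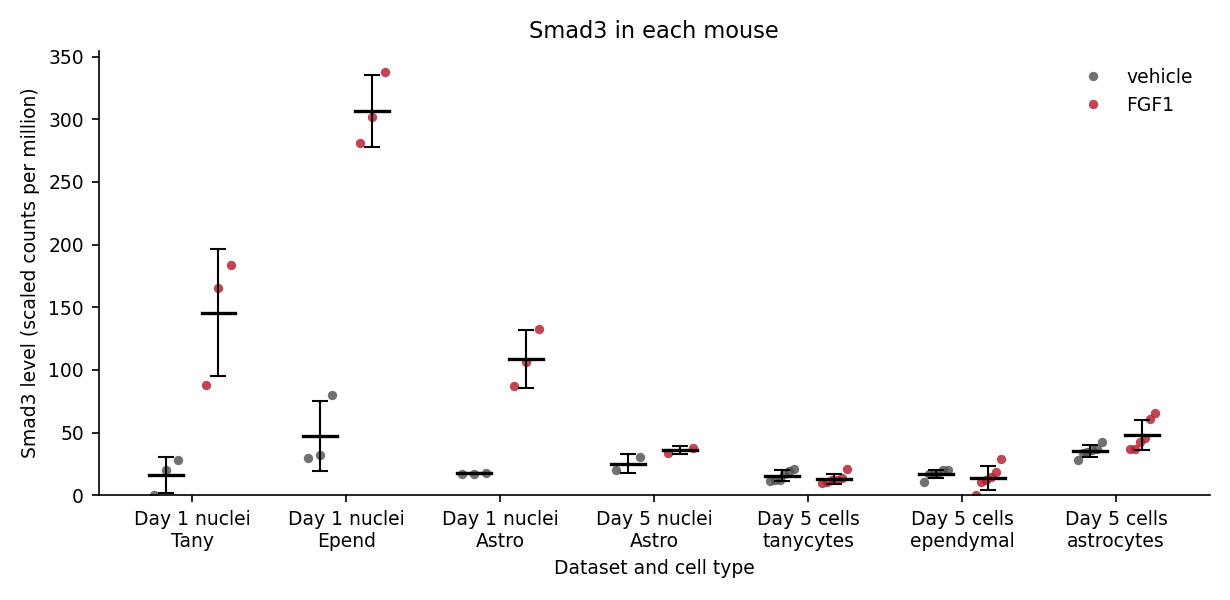
Smad3 level (scaled CPM, y axis) in each mouse, by dataset and cell type (x axis). Points are mice, grey for vehicle and red for FGF1, and black bars the mean ± 1 SD. On Day 1 all FGF1 mice lay above all vehicle mice in Tany, Epend and Astro nuclei, and on Day 5 the groups overlapped in the 3 classes of whole cells.

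Among the members, Tgfb1 lies at chr7:25687002-25705077 (plus strand), Tgfbr1 at chr4:47353222-47414931 (plus strand) and Tgfbr2 at chr9:116084293-116175360 (minus strand), in build GRCm38. Smad3 lies at chr9:63646767-63757994 (GRCm38, minus strand). Its promoter is shown because the gene rose in 3 cell types, with that of Ltbp1, a latent TGF-beta binding protein that rose beside it in 2 of them (chr17:75005568-75392512, plus strand), and that of Tgfb2 (chr1:186622792-186705989, minus strand). Tgfb2 has gene models on the other strand within it, and Ltbp1 has 2 RefSeq starts, of which 1 is shown. Each sequence is the 250 bases before the RefSeq start (build GRCm38.p6), 5′ to 3′, and capitals mark matches on either strand to CAGAC (bound by Smads, GTCTG on the other strand), TGANTCA (AP-1) or TGACGTCA (CRE), which were searched without allowing a mismatch.
Smad3 (chr9:63757995-63758244): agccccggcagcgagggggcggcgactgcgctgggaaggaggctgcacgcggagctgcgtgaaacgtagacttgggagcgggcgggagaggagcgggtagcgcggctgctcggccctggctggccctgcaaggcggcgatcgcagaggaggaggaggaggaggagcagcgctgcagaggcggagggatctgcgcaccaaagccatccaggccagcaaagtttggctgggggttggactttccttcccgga
Ltbp1 (chr17:75005279-75005528): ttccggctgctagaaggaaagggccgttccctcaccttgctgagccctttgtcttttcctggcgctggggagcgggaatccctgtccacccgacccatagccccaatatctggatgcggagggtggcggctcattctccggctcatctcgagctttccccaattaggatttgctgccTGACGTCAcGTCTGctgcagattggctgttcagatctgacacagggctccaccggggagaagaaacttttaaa
Tgfb2 (chr1:186705990-186706239): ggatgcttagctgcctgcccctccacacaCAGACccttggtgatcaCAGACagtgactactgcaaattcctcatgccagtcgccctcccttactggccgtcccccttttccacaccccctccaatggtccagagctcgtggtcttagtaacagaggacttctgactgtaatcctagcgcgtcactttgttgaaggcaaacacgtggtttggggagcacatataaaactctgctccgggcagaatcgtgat
None of the 3 motifs is found in the Smad3 window, which is 69.2% G and C and holds 22 CpG. The Ltbp1 window holds 1 CAGAC, as GTCTG, which starts 1 base after 1 TGACGTCA ends, and the Tgfb2 window holds 2 CAGAC. Of 32841 RefSeq promoters of this length, 42.2% hold CAGAC, 6.75% TGANTCA and 1.55% TGACGTCA. These matches are letters in a window and were not tested as sites.

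The other members were measured on Day 1 as follows. Tgfb2 in Tany was at 47.7, 107.6 and 88.0 CPM in FGF1 replicates 1, 2 and 3 and at 102.7, 90.7 and 66.3 in vehicle replicates 1, 2 and 3. The groups overlapped (log2 -0.23, SE 0.44, edgeR FDR = 0.80). Without nuclei above the 5% limits it was at 44.9, 115.0 and 82.9 against 106.4, 90.9 and 69.4 CPM and did not pass the low-count filter. In Astro and Epend, Tgfb2 did not pass the low-count filter and has no test in the planned fit. Its Astro levels were 55.0, 78.3 and 29.6 CPM against 27.1, 20.6 and 28.5, so that all FGF1 mice lay above the vehicle mice, replicate 3 only narrowly. Without nuclei above the limits they were 52.0, 72.2 and 32.5 against 31.0, 26.8 and 30.6 CPM. In Epend they ran the other way, at 44.1, 61.0 and 71.1 CPM with FGF1 against 193.9, 79.7 and 118.4 with vehicle, on 3 to 12 UMIs per mouse. Tgfb2 was also tested in unmap nuclei (log2 0.30, SE 0.32, edgeR FDR = 0.88) and in the neuronal type n29.Nr5a1/Adcyap1 (log2 -0.63, SE 0.48, FDR = 0.68). For Astro and Epend fitted without the filter, neither passed (Astro log2 1.26, edgeR FDR = 0.47, and Epend log2 -1.13, FDR = 0.43). The Epend effect on Tgfb2 minus the Astro effect was -2.28 (SE 0.69), which did not pass over 4270 genes (edgeR FDR = 0.65).

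Among the receptors, Tgfbr1 was tested in Micro (211.4 ± 43.3 against 186.0 ± 55.4 CPM, log2 0.24, SE 0.32, edgeR FDR = 0.96), in unmap nuclei (log2 0.10, SE 0.27, FDR = 0.95), in n29.Nr5a1/Adcyap1 (log2 0.12, SE 0.47, FDR = 0.96) and in Olig. In Olig it was at 24.7 to 35.5 CPM with FGF1 and 12.1 to 19.9 with vehicle, so the groups did not overlap, but the test was not passed (log2 0.91, SE 0.45, edgeR FDR = 0.91), and these nuclei hold neuronal RNA. Tgfbr2 passed the filter in no nuclear type fitted. Endothelial nuclei, of which 52 of 96 over all mice held a UMI of Tgfbr2, were not among the types fitted. In Epend it was at 102.8, 48.8 and 106.7 CPM in FGF1 mice and at 32.3, 47.8 and 14.8 in vehicle mice, on 17 and 6 UMIs, without a test. Tgfb1 likewise passed the filter in no nuclear type fitted. Fitted without the filter, neither was called in any type by edgeR, and 1 of those tests, Tgfb1 in Olig, had an unadjusted p below 0.05. Smad7, a feedback inhibitor of the pathway, passed the filter in the unmap nuclei alone, at 6.22 ± 1.63 against 3.85 ± 1.78 CPM (log2 0.70, SE 0.45, edgeR FDR = 0.81). In Glu5 fitted without the filter, Smad7 (13 UMIs with FGF1 against 0) and Tgfbr1 (21 against 1) had an unadjusted edgeR p below 0.05. Neither was called (FDR = 0.80 and 0.86).

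Beside the 6 members, 49 other genes of the pathway were listed by role, also with earlier results of these data known. On Day 1, 36 of them were tested in at least 1 type, in 192 gene-by-type tests, of which 6 (3.12%) were called, all higher with FGF1, beside 1.05% of all tests called and 0.653% called higher. The direction is in part fixed by the filter, since 9 of the 192 tests, 4 of the 6 called among them, had no vehicle mouse at the filter's minimum, and none lacked an FGF1 mouse at it. Without the filter 6 of 763 tests (0.786%) were called, all higher, beside 0.537% of all tests. Called were 3 of 30 tests of ligand and latency genes and 3 of 28 tests of target genes. None was called of 18 tests of other Smads (2 at p below 0.05 before adjustment), 12 of receptors and co-receptors (0) and 104 of regulators (6), by edgeR. The median log2 fold change over the 192 tests was 0.03, and 100 were above 0 and 92 below.

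Ltbp1 rose in Tany and Epend and Itgav in Tany. These are the nuclei whose marker shifts are given above beside Smad3, and the part of those shifts here was not tested. Ltbp1, which tethers latent TGF-beta to the matrix, was at 179.5, 158.2 and 263.9 CPM in Tany of FGF1 replicates 1, 2 and 3 and at 27.4, 20.9 and 53.0 in vehicle replicates 1, 2 and 3 (log2 2.63, SE 0.47, edgeR FDR = 0.0044). In Epend it was at 249.7, 219.7 and 266.7 CPM against 0, 0 and 74.0 (log2 3.18, SE 0.68, edgeR FDR = 0.0033), where all 5 vehicle UMIs came from replicate 3. In both types the groups were far apart. As for Smad3, the filter was passed through the FGF1 mice alone, since vehicle mice had 3 to 4 UMIs in Tany and 0 to 5 in Epend. Without nuclei above the 5% limits Ltbp1 was 2.44 in Tany (FDR = 0.0044) and 3.21 in Epend (FDR = 0.0031, edgeR). Without vehicle replicate 1 the Tany call was lost (log2 2.48, edgeR FDR = 0.069). Ltbp1 overlaps the gene model Gm6276 on the same strand, so its reads may be shared. Itgav, the alpha v integrin chain that helps to free latent TGF-beta, was at 213.2, 284.8 and 364.4 CPM in Tany of FGF1 mice and at 82.2, 104.6 and 145.8 in vehicle mice (log2 1.37, SE 0.39, edgeR FDR = 0.045). It passed without nuclei above the limits (log2 1.44, FDR = 0.021) but not by DESeq2 (FDR = 0.066), without the low-count filter (edgeR FDR = 0.069), with the batch as a block (FDR = 0.13) or in 5 of 6 fits without 1 mouse (all but that without FGF1 replicate 1, log2 1.15 to 1.55, FDR up to 0.27). In Astro, Itgav was at 414.8 ± 24.4 against 144.0 ± 53.7 CPM, but did not pass (log2 1.53, SE 0.51, edgeR FDR = 0.25). It passed there by DESeq2 (FDR = 0.030) and without nuclei above the limits (log2 1.70, edgeR FDR = 0.021). Itgav also did not pass in COP (165.0 ± 56.8 against 72.2 ± 13.6 CPM, log2 1.235, SE 0.34, edgeR FDR = 0.42) or in Olig (64.6 ± 14.4 against 26.1 ± 1.96, log2 1.24, SE 0.36, FDR = 0.46). In Epend, Micro and unmap its log2 fold change was 0.91, 0.57 and 0.45, without a call.

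Among the targets, the collagen gene Col3a1 rose in VLMC. It was at 763.3 and 765.2 CPM in VLMC of the 2 FGF1 mice with at least 10 such nuclei, and at 97.4, 234.1 and 73.4 in the 3 vehicle mice (log2 2.51, SE 0.64, edgeR FDR = 0.011). In VLMC 2.26% of the genes tested were called. Col3a1 is itself 1 of the 6 VLMC markers, and it overlaps Gm47302 on the same strand. That list summed to 2811 to 4545 CPM in FGF1 mice and 905 to 1575 in vehicle mice in these nuclei, with 3 of the 6 at a higher mean with FGF1. Lower with FGF1 and not overlapping were the sums of the oligodendrocyte (173.5 to 316.1 against 366.9 to 767.2 CPM), astrocyte (815.1 to 902.1 against 1145 to 1370), endothelial (242.9 to 382.6 against 415.8 to 681.0) and COP lists (0 to 133.1 against 212.8 to 269.0). The macrophage list was higher, at 34.7 to 49.9 against 0 to 12.2 CPM, with Cd163 and Lyve1 at 0. A lower mean with FGF1 was found for 6 of 7 oligodendrocyte, 5 of 6 astrocyte, 4 of 7 endothelial and 4 of 6 COP markers. The part of these shifts in the Col3a1 result was not tested. Col3a1 did not pass without the low-count filter (log2 2.41, edgeR FDR = 0.18), with the batch as a block (log2 2.42, FDR = 1.00) or without any 1 of the vehicle mice (log2 2.26 to 3.16, FDR up to 0.32). Without nuclei above the limits it could not be fitted, since 1 FGF1 mouse was left. A fit with the deposited batch as a block called 3 of the 192 tests in place of 6, one without nuclei above the 5% limits 4, and one without vehicle replicate 1 only 2. Without FGF1 replicate 1 the count was 6.

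**Figure D3:**
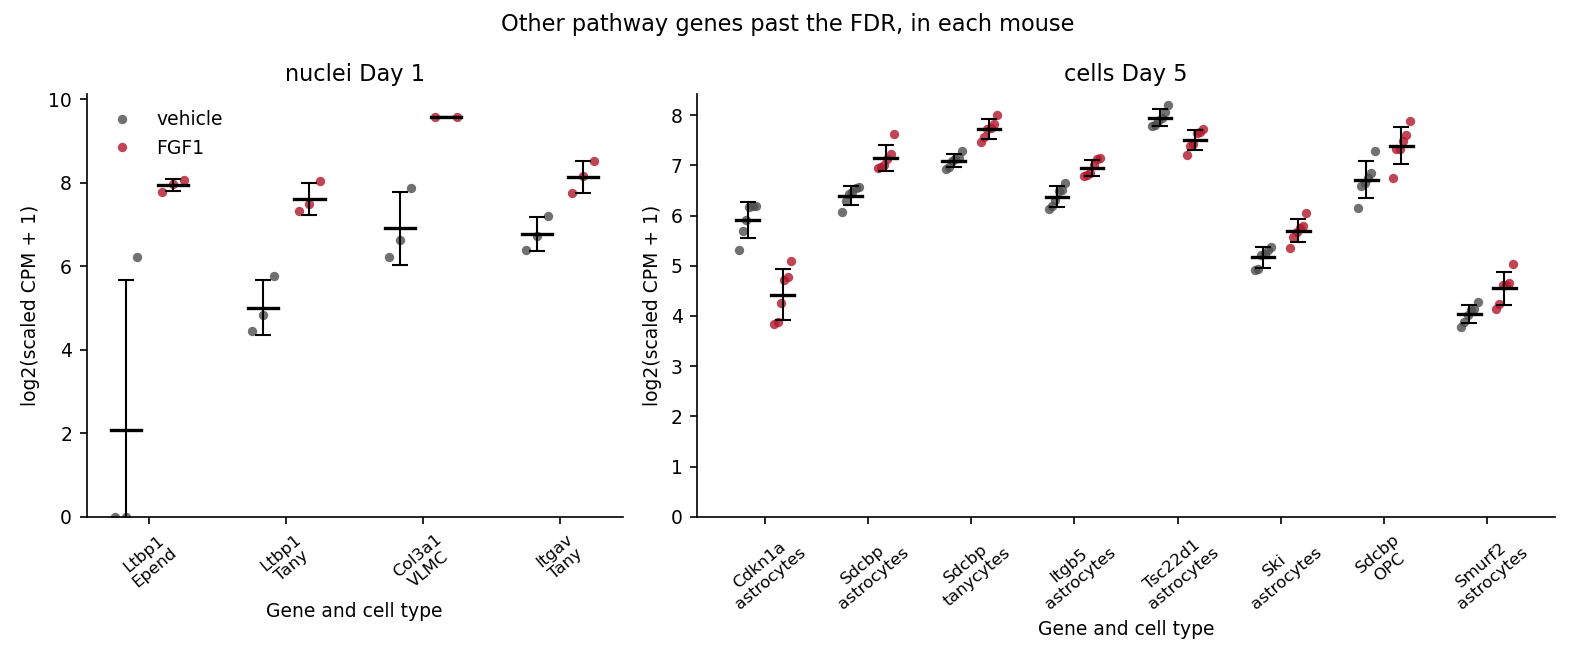
Other pathway genes past the FDR, as log2(scaled CPM + 1) in each mouse (y axis) by gene and cell type (x axis), for Day 1 nuclei (left) and Day 5 whole cells (right). Points are mice, grey for vehicle and red for FGF1, and black bars the mean ± 1 SD. On Day 1 the 4 shown were higher with FGF1, and in Day 5 astrocytes Cdkn1a and Tsc22d1 were lower.

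On Day 5, none of the 14 tests of members in nuclei was called (0.288% of all tests were), and 1 had an unadjusted edgeR p below 0.05. DESeq2 also called 0. The groups held only 2 mice each. In counts simulated for Day 5 Astro at a dispersion of 0.2, 1 of 90 genes changed 4-fold was called. That dispersion was assumed and not estimated from these mice, so the simulated share does not measure the power here. The fit of the real Astro counts called 53 of 8484 genes, 3 higher and 50 lower with FGF1. The member with the low unadjusted p was Tgfb2 in Astro. It was at 52.4 and 67.3 CPM in FGF1 replicates 37 and 45 and at 18.5 and 19.9 in vehicle replicates 28 and 38. The FGF1 mice lay well above the vehicle mice. The log2 fold change was 1.68 (SE 0.45, edgeR FDR = 0.090). In the same nuclei the 6 astrocyte markers summed to 5016 to 6535 CPM with FGF1 and 3064 to 3767 with vehicle, the 6 COP markers to 283.4 to 316.2 against 166.5 to 199.4, and the 5 ependymal markers to 176.2 to 231.6 against 99.7 to 154.2. A higher mean with FGF1 was found for 5 of the 6, 4 of the 6 and all 5, none of them at 0. The tanycyte list (at most 166.3 against 186.1 to 431.7 CPM) and the endothelial list (66.7 to 70.4 against 70.9 to 159.5) were lower, although 5 of 8 tanycyte markers had a higher mean, and 6 of 7 endothelial markers a lower one. The part of these markers in the Tgfb2 values was not tested. It passed without the low-count filter (FDR = 0.044). Fits without 1 mouse leave 1 mouse in a group, which is then assumed to vary like the other group. They gave FDR = 0.32 without FGF1 replicate 37, 0.90 without FGF1 replicate 45, 0.49 without vehicle replicate 28 and 0.0073 without vehicle replicate 38 (edgeR). The last leaves vehicle replicate 28, most of whose astrocyte nuclei lay above the 5% limits. It did not pass with the batch as a block (FDR = 0.26) and without nuclei above 5% mitochondrial or ribosomal UMIs (log2 1.28, FDR = 0.40).

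Smad3 in astrocyte nuclei on Day 5 was at 38.1 and 33.7 CPM with FGF1 and 30.8 and 19.9 with vehicle (log2 0.32, SE 0.45, edgeR FDR = 0.80), and without nuclei above the limits the log2 fold change was 0.66 (FDR = 0.81). The Day 5 effect minus the Day 1 effect in Astro was -2.23 on the log2 scale (SE 0.61), which did not pass over 8872 genes (edgeR FDR = 0.36). For Tgfb2 in Astro the same difference was 0.46 (SE 0.68, FDR = 0.94). Tgfbr1 in Astro was at 42.9 and 32.6 CPM against 21.6 and 19.9 (log2 0.77, SE 0.47, edgeR FDR = 0.50). Without nuclei above the limits it was at 46.95 and 34.1 against 3.98 and 20.2 CPM (log2 2.11, SE 0.80, edgeR FDR = 0.36). Tany and Epend could not be tested on Day 5, because vehicle replicate 28 had 9 and 3 such nuclei and vehicle replicate 38 had 14 and 8. Of the 167 tests of other pathway genes, none was called by edgeR or DESeq2, and 7 had by edgeR an unadjusted p below 0.05.

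In whole cells on Day 5, 1 of 26 tests of members was called, beside 4.18% of all gene-by-type tests (2.07% higher). Tgfb2 rose in astrocytes, from 33.8 ± 4.5 to 52.1 ± 7.2 CPM (n = 6 mice each). FGF1 mice ran from 40.4 to 59.8 CPM with a median of 54.3, and vehicle mice from 27.5 to 39.99 with a median of 32.7. The groups did not overlap, though the lowest FGF1 mouse and the highest vehicle mouse were nearly level. The log2 fold change was 0.58 (SE 0.14, edgeR FDR = 0.0061), in a class where 12.6% of genes were called (6.55% higher). Tgfb2 was higher with FGF1 in 6 of 6 batches, by 0.23 to 1.09 on the log2(CPM + 1) scale. Any pairing of the mice gives that count, since the groups did not overlap. Each of the 12 fits without 1 mouse kept the call (log2 0.54 to 0.67).

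The astrocyte class joins 2 clusters of the deposited metadata. Cluster 1 held 1531 FGF1 and 7940 vehicle cells, and cluster 4, whose leading genes include Gfap and Serpina3n, held 3412 and 697, so different clusters hold most astrocytes of the 2 groups. Within cluster 1, Tgfb2 was at 43.2 ± 10.1 against 32.5 ± 4.8 CPM (log2 0.29, SE 0.22, edgeR FDR = 0.73). Within cluster 4 it was at 57.0 ± 6.9 against 45.0 ± 13.2 CPM (log2 0.32, SE 0.26, edgeR FDR = 0.80). Neither passed alone, where 0.404% (cluster 1) and 0.385% (cluster 4) of genes were called. In vehicle mice the mean of cluster 4 lay above that of cluster 1 by less than their combined SDs. Within the astrocyte class the neuron markers summed to 57.0 to 127.7 CPM with FGF1 and 138.3 to 351.6 with vehicle, and the tanycyte markers to 146.4 to 316.9 against 94.2 to 134.4. All 7 neuron markers had a lower mean with FGF1 and 7 of the 8 tanycyte markers a higher one, and none of either list was at 0. Tgfb2 is itself high in tanycytes, and the part of these markers in the result was not tested.

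**Figure D4:**
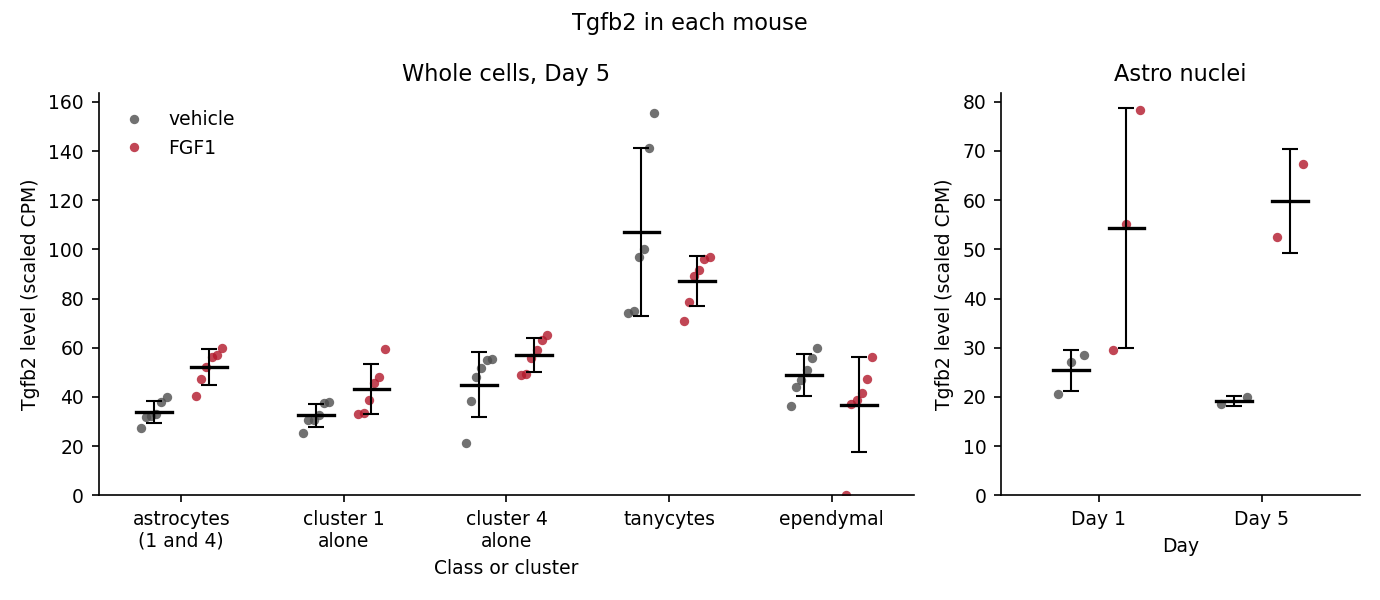
Tgfb2 level (scaled CPM, y axes) in each mouse, for whole cells on Day 5 by class or cluster (left) and for astrocyte nuclei on Day 1 and Day 5 (right). Points are mice, grey for vehicle and red for FGF1, and black bars the mean ± 1 SD. The groups do not overlap in the astrocyte class or in astrocyte nuclei on either day (on Day 1 by a narrow margin, 29.6 against 28.5 CPM), and overlap within clusters 1 and 4, in tanycytes and in ependymal cells.

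In tanycytes, Tgfb2 was at 71.0 to 97.0 CPM in FGF1 mice (median 90.2) and 74.0 to 155.6 in vehicle mice (median 98.6), with overlapping groups (log2 -0.26, SE 0.16, edgeR FDR = 0.40). Most tanycytes were in cluster 0 (5458 FGF1 and 4051 vehicle cells), while cluster 7 held 2728 and 590 and cluster 10 held 1018 and 559. Within them the means ran in different directions. In cluster 0, Tgfb2 was at 113.3 ± 25.0 against 142.3 ± 50.4 CPM (log2 -0.23, SE 0.23, edgeR FDR = 0.65). In cluster 7 it was at 41.6 ± 13.03 (5 mice) against 27.2 ± 21.1 CPM (log2 0.52, SE 0.31, edgeR FDR = 0.43), and in cluster 10, where it was not tested, at 53.0 ± 30.3 against 40.5 ± 22.3. The groups overlapped in all 3 clusters. The effect in tanycytes minus that in astrocytes was -0.76 (SE 0.16, edgeR FDR = 0.00063, mouse as a block), in a test that called 15.4% of genes. Over 4 pairs of classes, 3 of 16 such tests of members were called, beside 8.06% of all genes. Each compares the joined classes, and the part of their clusters was not tested. In ependymal cells Tgfb2 was at 36.8 ± 19.3 against 49.0 ± 8.5 CPM (log2 -0.16, SE 0.19, edgeR FDR = 0.80). That effect minus the astrocyte one was -0.75 (SE 0.23, edgeR FDR = 0.028), where 7.52% of genes were called, but 6 of 12 fits without 1 mouse did not pass (FDR up to 0.088). The effect on Smad3 in tanycytes minus that in astrocytes was -0.66 (SE 0.23, edgeR FDR = 0.040), and 5 of 12 such fits did not pass (FDR up to 0.14).

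Smad3 itself passed in no class of cells with all mice. In astrocytes it was at 36.8 to 65.3 CPM in FGF1 mice (median 44.1) and 28.5 to 42.8 in vehicle mice (median 35.2), with overlap (log2 0.41, SE 0.16, edgeR FDR = 0.086), and it passed in 1 of 12 fits without 1 mouse, that without FGF1 replicate 10 (log2 0.50, FDR = 0.036). Within astrocyte cluster 1 Smad3 was at 29.9 ± 8.5 against 34.6 ± 5.1 CPM (log2 -0.15, SE 0.23, edgeR FDR = 0.90). Within cluster 4 it was at 54.8 ± 13.8 against 40.8 ± 17.1 (log2 0.26, SE 0.27, FDR = 0.88). In tanycytes it was at 13.3 ± 4.1 against 15.5 ± 4.4 CPM (log2 -0.24, SE 0.21, edgeR FDR = 0.56). In COP, Smad3 was at 67.1 ± 11.5 against 78.1 ± 72.2 CPM (edgeR FDR = 0.96), with 1583 FGF1 and 164 vehicle cells and vehicle mice between 0 and 178.9.

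The receptor genes did not pass in cells either. Tgfbr2 in ependymal cells was at 62.7 to 88.4 CPM in FGF1 mice (median 68.5) and 31.9 to 74.5 in vehicle mice (median 44.1), higher in 5 of 6 batches (log2 0.55, SE 0.19, edgeR FDR = 0.15). In microglia, Tgfbr1 was at 488.5 ± 120.9 against 533.1 ± 106.6 CPM (log2 -0.16, SE 0.20, edgeR FDR = 0.80) and Tgfbr2 at 119.7 ± 37.8 against 116.4 ± 41.3 (log2 0.03, SE 0.24, FDR = 0.98). In endothelial cells, Tgfbr2 was at 137.6 ± 25.4 against 116.7 ± 26.5 CPM (log2 0.19, SE 0.15, edgeR FDR = 0.66). In VLMC it was at 139.3 ± 54.3 (5 mice) against 112.5 ± 89.5 CPM (4 mice; log2 0.75, SE 0.59, edgeR FDR = 1.00). The groups overlapped in each of these.

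Tgfb2 in endothelial cells was at 102.2 ± 35.0 against 92.8 ± 8.5 CPM (log2 0.10, SE 0.17, edgeR FDR = 0.85). Tgfb1 was tested in microglia (76.9 ± 24.9 against 56.7 ± 44.7 CPM, log2 0.27, SE 0.34, edgeR FDR = 0.82) and in endothelial cells (27.8 ± 11.5 against 20.2 ± 11.2, log2 0.45, SE 0.31, FDR = 0.58). In macrophages it was not tested, at 25.6 ± 23.7 CPM (5 mice, 10 UMIs) against 12.7 ± 16.3 (4 mice, 3 UMIs). Smad7 in oligodendrocytes was at 114.9 ± 22.1 against 134.8 ± 37.0 CPM (log2 -0.18, SE 0.16, edgeR FDR = 0.60). That class also shifted between clusters: cluster 2 held 1799 FGF1 and 5610 vehicle cells and cluster 11 held 1212 and 166. Within cluster 2 Smad7 was at 92.4 ± 17.6 against 130.0 ± 29.2 CPM (log2 -0.40, SE 0.16, edgeR FDR = 0.27), and within cluster 11 at 132.4 ± 35.8 against 206.1 ± 126.4 (log2 -0.60, SE 0.27, FDR = 0.19). In microglia, Smad7 was at 103.0 ± 27.0 against 84.0 ± 17.7 CPM (log2 0.31, SE 0.24, edgeR FDR = 0.65).

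**Figure D5:**
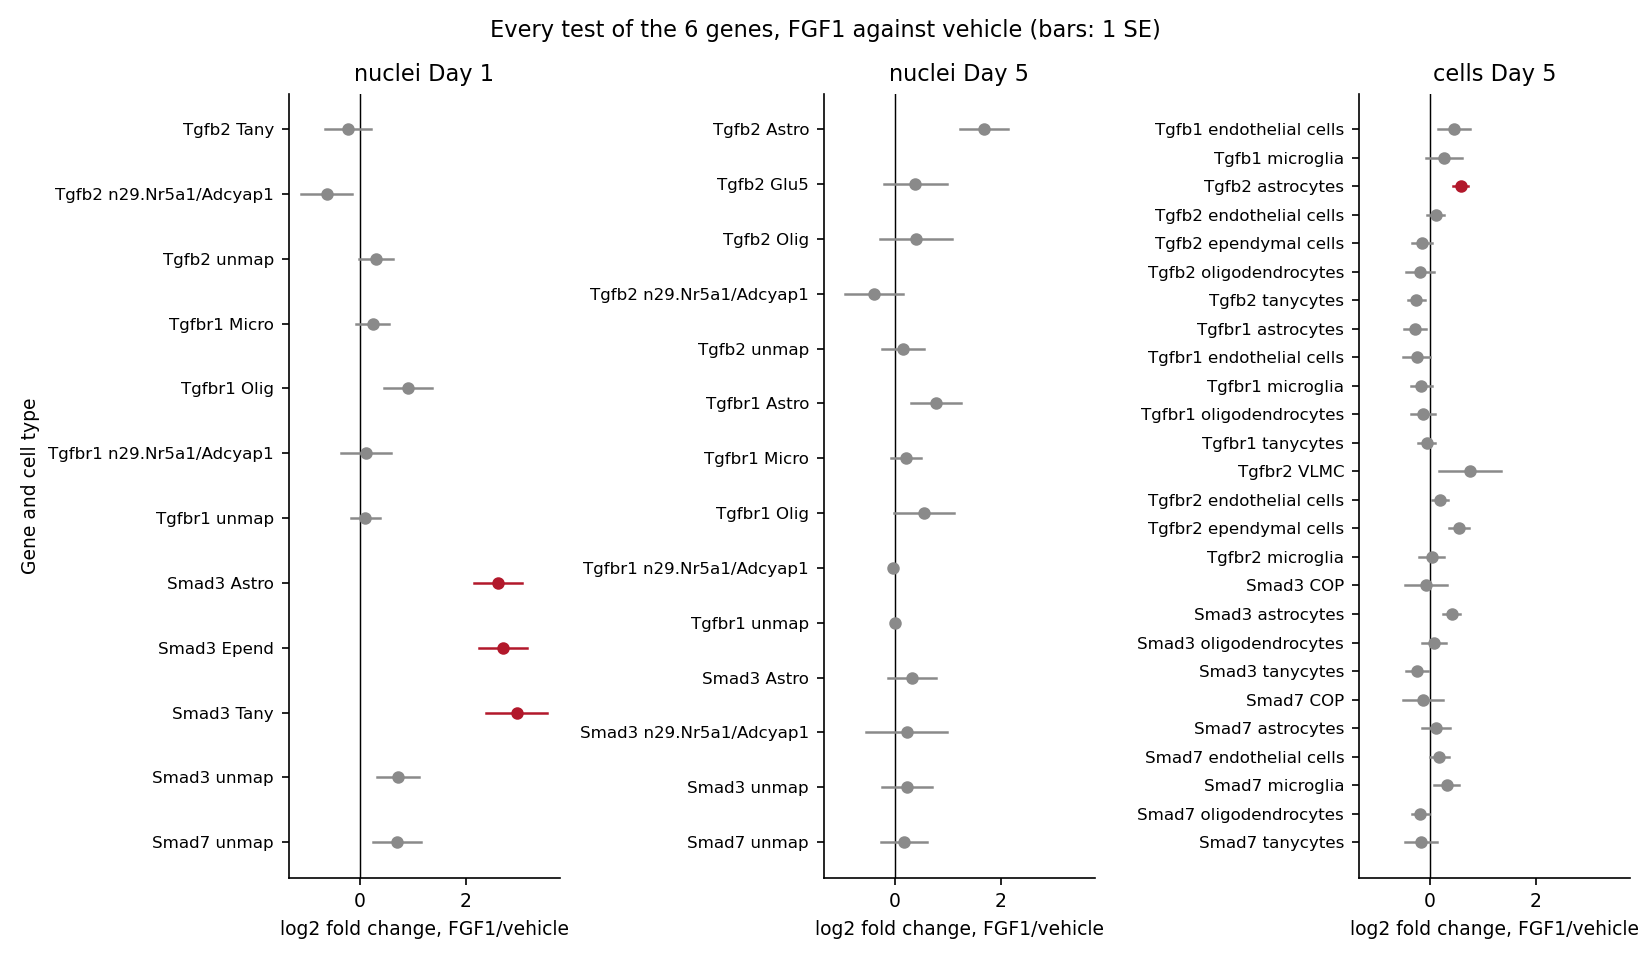
Log2 fold change (FGF1 against vehicle, x axis) of every member tested, by gene and cell type (y axis), in Day 1 nuclei, Day 5 nuclei and Day 5 cells. Points are edgeR estimates with 1 SE (no bar where p is above 0.9), red where the FDR is below 0.05. Red are Smad3 in 3 nuclear types on Day 1, at 2.61 to 2.96, and Tgfb2 in Day 5 astrocytes, at 0.58.

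Of the other pathway genes, 47 were in the table of whole cells, and 43 were tested in 183 gene-by-type tests, of which 6 were called higher and 2 lower. These 8 are 4.37% of the tests, close to the 4.18% called of all tests in cells. In astrocytes 6 of 28 were called, beside 12.6% of all genes tested in that class. These 6 calls are of the joined astrocyte class, and none passed within its clusters alone. Itgb5, an integrin chain that pairs with alpha v, rose from 82.9 ± 11.8 to 123.6 ± 13.9 CPM (log2 0.59, SE 0.12, edgeR FDR = 0.0014). Among regulators, Sdcbp, which encodes the scaffold protein syntenin-1, rose from 83.8 ± 10.3 to 143.1 ± 28.4 CPM (log2 0.77, SE 0.13, edgeR FDR = 0.00016). Ski, a repressor of Smad-driven transcription, rose from 35.2 ± 4.9 to 51.6 ± 8.5 CPM (log2 0.52, SE 0.14, FDR = 0.017). Smurf2, a ubiquitin ligase that acts on Smads and receptors, rose from 15.5 ± 2.0 to 23.0 ± 5.4 CPM (log2 0.58, SE 0.19, FDR = 0.043), with overlapping groups for both Ski and Smurf2.

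The 2 astrocyte genes that fell are on the list of targets. Over all classes of cells that list gave 39 tests, 22 with a log2 fold change above 0 and 17 below, with a median of 0.09. Cdkn1a, the cell cycle inhibitor p21, was at 13.4 to 33.1 CPM in FGF1 mice (median 21.6) and 39.0 to 72.5 in vehicle mice (median 64.8), with no overlap (log2 -1.35, SE 0.20, edgeR FDR = 9.5e-05). Tsc22d1, a transcriptional regulator, fell from 247.7 ± 29.3 to 183.0 ± 24.6 CPM (log2 -0.43, SE 0.11, edgeR FDR = 0.011). Sdcbp also rose in tanycytes, from 135.7 ± 12.0 to 211.9 ± 28.8 CPM (log2 0.65, SE 0.11, edgeR FDR = 0.0011, 5.08% of genes called and 2.29% higher), and in OPC, from 106.8 ± 28.2 to 171.9 ± 42.1 (log2 0.63, SE 0.16, FDR = 0.019, 3.24% called). No other Smad and no receptor or co-receptor gene was called by edgeR in cells, of 24 and 10 tests, 5 and 0 of which had an unadjusted p below 0.05. Within single clusters, 3 of 209 tests of other pathway genes passed, beside 1.75% of all such tests. All 3 were Sdcbp, in tanycyte clusters 0 (log2 0.58, edgeR FDR = 0.0023) and 7 (0.80, FDR = 0.0047) and in OPC cluster 5 (0.65, FDR = 0.021). None of the 6 astrocyte calls was kept within cluster 1 or 4. There Sdcbp was 0.25 and 0.56, Itgb5 0.25 and 0.69, Smurf2 0.32 and 0.88, Tsc22d1 -0.30 and -0.26 and Ski 0.33 and -0.08 on the log2 scale (edgeR FDR from 0.14 to 0.97). Cdkn1a was -0.63 in cluster 1 (FDR = 0.32) and was not tested in cluster 4.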

How the data were processed

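Gene counts came from 10 single-nucleus and 12 single-cell libraries (10x 3′ v2), each of 1 mouse. Per the labels and the study's methods, the authors used Cell Ranger 1.2 with mm10 (GRCm38), counted intronic reads for nuclei, clustered with Seurat, marked doublets in cells with Scrublet and removed neurons from cells. Deposited values are raw UMI counts, with metadata that hold, for cells, the authors' percent of mitochondrial and ribosomal UMIs; for nuclei these shares were computed from the counts, and some deposited nuclei exceeded the 5% that the methods state. The labels also list GRCh38. Nuclear types were the authors' labels. Clusters of cells were named from marker lists, and 270 cells in unnamed clusters were left out.

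UMIs were summed per mouse and type (at least 10 barcodes per mouse and 2 mice per group) and tested with edgeR 4.0.16 (quasi-likelihood, filterByExpr, TMM) in R 4.3.3, with Benjamini-Hochberg adjustment over all genes of a type (called where FDR was below 0.05). The SE is the log2 fold change over the root of F. Differences between types used mouse as a block. Alternatives were DESeq2 1.42.0, RLE scaling, no low-count filter, at least 20 barcodes, a mitochondrial and ribosomal limit (5% for nuclei, 20% for cells), single clusters, the batch or the replicate number as a block, and each mouse left out. The batch block for Day 1 was added after the data were seen. The code was tested on simulated data.

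Totals per library ran from 2652897 to 16345981 UMIs. Named are the 6 members, other pathway genes past the FDR, and the 3 genes most like each member. A gene of the pathway list enters the counts but is not reported here. Members and lists were chosen with earlier results of these data known. In unmap nuclei of Day 1, deviations of same-numbered mice correlated at -0.12, -0.07 and 0.30. The deposited batches joined other numbers. Same-batch mice correlated there at -0.34, -0.06 and -0.44. With 3 mice a group, such correlations cannot decide whether the numbers or the batches pair the mice. Fits with either as a block are among the alternatives.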

Additional observations from a re-analysis of the deposited data

Results flagged for a closer look

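In whole cells on Day 5, 52 groups of 4 to 6 mice were examined for a mouse far from the others. A far mouse was found in 5, where chance gives about 1 in 20 groups. The groups share mice and are not independent, so that share is a rough guide. Tgfb1 in endothelial cells was at 42.3 CPM in vehicle replicate 27, against 21.3 in the nearest mouse, on 14 UMIs. In microglia of the same mouse, Tgfbr2 was at 198.2 CPM (nearest 119.3) on 10 UMIs in 40 cells. Tgfb2 was at 0 in the ependymal cells of FGF1 replicate 6, which gave 19 such cells (nearest 37.1 CPM). In tanycytes, Tgfbr1 was at 12.8 CPM in vehicle replicate 22 (nearest 17.4) and Smad3 at 21.1 CPM in FGF1 replicate 28 (nearest 13.5).

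The effect of FGF1 passed edgeR's interaction test between cell types in 3 of 16 tests of members, beside 15.4% of genes called for tanycytes minus astrocytes and 7.52% for ependymal cells minus astrocytes. For Tgfb2 the effect in tanycytes minus that in astrocytes was -0.76 on the log2 scale, and the effect in ependymal cells minus that in astrocytes was -0.75, which did not pass in 6 of 12 fits without 1 mouse. For Smad3 the effect in tanycytes minus that in astrocytes was -0.66, which did not pass in 5 of 12 such fits. Astrocytes of the FGF1 and vehicle mice came mostly from different clusters, 4 and 1, and the mean of Tgfb2 was lower with FGF1 in tanycyte cluster 0 and higher in clusters 7 and 10. The part of the clusters in the differences was not tested.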

How the results depend on the processing

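The number of members called on Day 1 was 3, from 2 to 3 over 7 alternatives and 1 to 3 when a mouse was left out (1 without vehicle replicate 1). The fit with the replicate number as a block called 3 members, and 5 tests of other pathway genes in place of 6. Those calls were 3 with the batch as a block and 2 to 6 when a mouse was left out (2 without vehicle replicate 1, and 3 without FGF1 replicate 2, vehicle replicate 2 or vehicle replicate 3). Smad3 in Astro was 2.60 with the batch as a block, where it did not pass, and 2.45 to 2.73 without 1 mouse. Smad3 ranged from 2.48 to 3.26 in Epend and 2.58 to 3.41 in Tany without 1 mouse.

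In Day 5 nuclei, 1 member was called without the low-count filter, and 0 to 1 members and 0 to 1 other pathway genes when a mouse was left out (1 of each without vehicle replicate 38, where the lone vehicle mouse is assumed to vary like the FGF1 mice). In Day 5 cells, no member was called by edgeR in any cluster alone, where Tgfb2 was 0.29 in cluster 1 and 0.32 in cluster 4. Leaving out a mouse gave 1 to 2 members (2 without FGF1 replicate 10, Smad3 in astrocytes being the other) and, for Tgfb2 in astrocytes, 0.54 to 0.67. Other pathway calls were 3 in single clusters, 13 without the low-count filter and 5 to 12 when a mouse was left out (5 without FGF1 replicate 7). Differences between types numbered 1 to 4 when a mouse was left out. They were -0.86 to -0.68 for Tgfb2 in tanycytes, -0.94 to -0.67 for Tgfb2 in ependymal cells and -0.88 to -0.53 for Smad3 in tanycytes, each minus astrocytes. The vehicle level of Tgfb2 in Astro nuclei on Day 5 was 27.1 CPM without nuclei above the limit (19.2 with them), and 14 of 15 levels moved by less than 1 SD. The causes were not tested. Few nuclei per mouse limit the Day 1 values: a vehicle mouse gave 0 to 10 UMIs of Smad3 in each type it was called in. Tgfb1 and Tgfbr2 passed the low-count filter in no nuclear type fitted, and endothelial nuclei were not fitted.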
